A study of Homo sapiens with 4 samples.

Results

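The core genes that carry a cell from G1 towards S phase were followed in 4 libraries of human breast cancer cell lines: the D-type cyclins CCND1, CCND2 and CCND3, the E-type cyclins CCNE1 and CCNE2, the kinases CDK4 and CDK6, the inhibitor genes CDKN2A and CDKN2B, and RB1. They were chosen by symbol, as 10 of the 39261 genes in the tables, and all 10 were found. RNA was sequenced from MDA-MB-231, a triple-negative line of mesenchymal character, with a TMEM126A knockdown construct or the sh-NC control vector, and from MCF10-Ca1a (Ca1a), which forms tumours and descends from mammary epithelial MCF10A cells, with a TMEM126A overexpression construct or the pCDH control vector. TMEM126A encodes a mitochondrial inner membrane protein. All 4 cultures had received lentivirus and were at passages 10 to 15, and each of the 4 groups held 1 library. Ca1a was grown in DMEM/F12 with horse serum, insulin, EGF, cholera toxin and hydrocortisone, and MDA-MB-231 in L15 with FBS, so line, medium and vector cannot be told apart between the lines. The sources used here do not say whether a culture was a clone or a pool of transduced cells.

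D-type cyclins bind CDK4 or CDK6, and the active kinases phosphorylate RB1, the retinoblastoma protein, which otherwise holds E2F transcription factors in check. Freed E2F factors switch on genes for DNA replication, among them the E-type cyclins, which drive CDK2 in the same direction. CDKN2A encodes the INK4A inhibitor of CDK4 and CDK6 and, from another first exon and reading frame, ARF, which stabilises p53 through MDM2. CDKN2B, its neighbour on chromosome arm 9p, encodes the related inhibitor INK4B. The 9p locus is often deleted in cancer, and the cyclin D kinases are drug targets in breast cancer.

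Depth ran from 20673373 to 21405193 reads, and no gene took more than 0.661% of a library. The targeted gene, TMEM126A, had 559 normalized counts in the MDA-MB-231 control and 22.9 in the knockdown, and 265 in the Ca1a control and 9381 with overexpression, so the label of each treated library matched. Of 6 epithelial markers, 5 were at least 2-fold higher in Ca1a (EPCAM 131 against 3.1 FPKM in the control libraries), and of 5 mesenchymal markers with at least 1 FPKM, 4 were at least 2-fold higher in MDA-MB-231 (VIM 721 against 90.5 FPKM). PTPRC, CD3E and ADIPOQ, markers of leukocytes, T cells and fat cells, were at or near 0, while the macrophage marker CD68 had 98.6 FPKM in the MDA-MB-231 control and 34.9 in the Ca1a control. Of the other 5 markers of other cell types, COL1A1, PDGFRB, PECAM1 and LUM had 228, 191, 91 and 46 reads in the MDA-MB-231 control and 122, 2, 206 and 0 in the Ca1a control, and VWF 13 and 0. The endothelial marker PECAM1 was higher in both comparisons (ratios 1.88 with the knockdown and 1.66 with overexpression), the stromal marker LUM was lower with the knockdown (0.408) and CD68 lower with overexpression (0.843). Their part in the results was not tested. FPKM are fragment counts scaled by gene length and depth, and they serve here to set genes and lines side by side. Ratios within a line use the normalized counts, which in Ca1a are plain reads (size factor 1). Conditions could not be tested against each other, since every group is a single library. Intervals are 95% intervals for counting error only and do not hold the spread between cultures, so "higher" and "lower" within a line mean beyond counting error of these libraries. In RNA from whole cultures, fewer cells of a type and less RNA per cell cannot be told apart.

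Upstream sequence from RefSeq (GRCh38.p14) was at hand for 7 of the 10 genes, in 11 windows of 250 bases before a RefSeq start. These windows can run into the 5′ UTR of longer GENCODE transcripts, and the bases shown for CCNE1 and CDKN2A lie outside every annotated UTR. Of the 26 CDK4 bases shown, 21 lie in an annotated UTR, as do 211 of the 250 bases of the CDK4 window. The stretches are given 5′ to 3′ on the strand of the gene: the upstream part of the CCNE1 window, since CCNE1 had the widest ratio with overexpression among the members tested, a short stretch of the CDK4 window with 2 CACGTG E-boxes in capitals, since CDK4 is the main kinase of both lines, and the window before the ARF start of CDKN2A, the gene listed at 0 in every library.
CCNE1, chr19:29811741-29811897, plus strand: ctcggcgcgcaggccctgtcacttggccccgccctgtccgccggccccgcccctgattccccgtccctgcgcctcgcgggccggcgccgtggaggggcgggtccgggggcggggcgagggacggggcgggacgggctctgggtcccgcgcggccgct
CDK4, chr12:57752501-57752526, minus strand: CACGTGtgatagcaacagatCACGTG
CDKN2A, chr9:21995325-21995574, minus strand: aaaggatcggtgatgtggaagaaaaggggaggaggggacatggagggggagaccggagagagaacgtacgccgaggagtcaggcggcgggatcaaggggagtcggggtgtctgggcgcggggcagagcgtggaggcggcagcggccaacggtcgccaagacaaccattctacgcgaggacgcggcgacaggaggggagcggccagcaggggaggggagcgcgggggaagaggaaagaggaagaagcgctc

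The CDK4 window held 3 copies of CACGTG, a palindromic E-box that MYC and other basic helix-loop-helix factors can bind. At least 1 copy was in 6.34% of 35116 RefSeq windows of 250 bases, and at least 3 copies were in 0.0797%. The CCNE1 window is GC-rich, with 81.2% G or C and 39 CpG. An E2F core (TTCCCGC as the first form, TTCGCGC as the second form, TTGCCGC as another form or TTGGCGC as the last form, on either strand) was in none of the 11 windows, against 10.9% of all windows. CCND1, CCND2 and CCNE2 had no window. The RB1 window (48476200 to 48476449) lies inside the RB1 gene, so the sequence before the gene's 5′ end was not searched. The 11 windows are too few to tell 0 from the share of all windows. For the E2F-responsive replication and mitosis genes named further on, 13 of the 19 with a window (68.4%) held a core, against 13% of 27305 genes. That list was drawn up as E2F-responsive genes, so its high share is no independent result. A match describes letters in the window, not a bound site.

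The G1 cyclins and CDK4 were higher in the MDA-MB-231 control than in the Ca1a control, while CDK6 and RB1 were close between the lines. Of 7 members with at least 1 FPKM in a control, 5 were at least 2-fold higher in MDA-MB-231 and 0 in Ca1a, on log2(FPKM + 0.1). Across all 12101 such genes, 26.8% were at least 2-fold higher in MDA-MB-231 and 13.6% in Ca1a. The median log2 ratio of MDA-MB-231 over Ca1a was 1.46 over the 7 members and 0.31 over all those genes. After that shift of all genes was taken off, 4 members stayed past 2-fold and CDK4 did not (0.77).

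**Figure D1:**
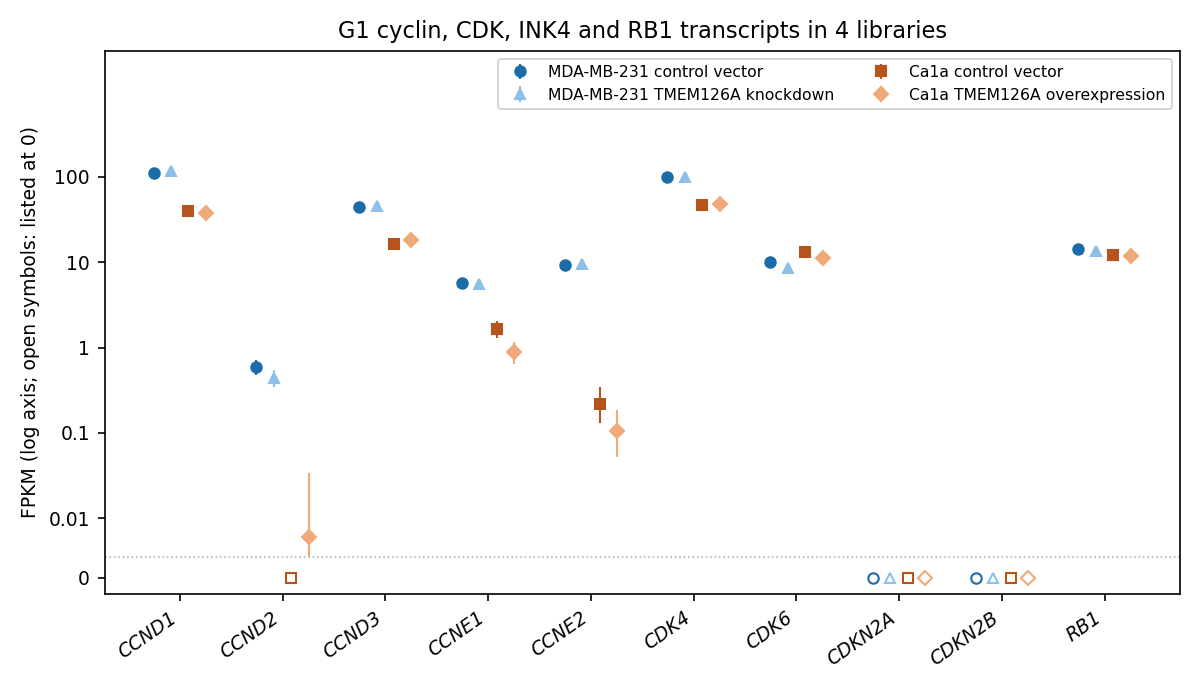
FPKM of the 10 genes (log axis) in the 4 libraries, with 95% Poisson counting intervals as bars and open symbols for genes listed at 0. CCND1, CCND3, CCNE1, CCNE2 and CDK4 lie higher in both MDA-MB-231 libraries than in both Ca1a libraries, and CDKN2A and CDKN2B are listed at 0 in all 4.

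Cyclin D1 was the main D-type cyclin of both lines. CCND1 (chromosome 11, 69641087 to 69654474, plus strand, GRCh38) had 110 FPKM in the MDA-MB-231 control (counting interval 108 to 112), 118 in the knockdown, 39.6 in the Ca1a control (38.4 to 40.8) and 38.2 with overexpression. CCND3 (chromosome 6, 41934933 to 42050357, minus strand) had 44.7 and 45.6 FPKM in MDA-MB-231 and 16.2 and 18 in Ca1a, in the order control and treated. The levels of the lines did not overlap for either gene, and the control ratio in reads scaled to depth was 2.81 for CCND1 (2.71 to 2.92) and 2.95 for CCND3 (2.74 to 3.18).

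Cyclin D2, the third of the family, was nearly confined to the MDA-MB-231 libraries. CCND2 (chromosome 12, 4273772 to 4305350, plus strand) had 97 reads in the MDA-MB-231 control and 80 in the knockdown, 0 in the Ca1a control and 1 with overexpression. By the counting interval of the ratio in reads scaled to depth, it was at least 26.6-fold higher in the MDA-MB-231 control. Even there it reached 0.591 FPKM (0.48 to 0.721), far below the other D-type cyclins. CCND1 held 70.9% of the summed D-cyclin FPKM in the MDA-MB-231 control and 71% in the Ca1a control, although the sums were 155 and 55.8 FPKM. The lines thus held CCND1 and CCND3 in nearly the same proportions at different totals.

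The E-type cyclins differed between the lines in level and in proportion. CCNE2 (chromosome 8, 94879770 to 94896678, minus strand) had 9.27 FPKM (8.67 to 9.91) and 9.41 FPKM in the MDA-MB-231 control and knockdown, from 875 and 893 reads. In Ca1a it had 0.219 FPKM (0.13 to 0.346) in the control and 0.104 with overexpression, from 18 and 11 reads. The difference was 50.1-fold in reads scaled to depth (31.5 to 84.9) between the controls and 42.4-fold in FPKM.

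CCNE1 (chromosome 19, 29811898 to 29824308, plus strand) was also higher in MDA-MB-231. It had 5.74 FPKM (5.11 to 6.43) and 5.61 FPKM in the MDA-MB-231 control and knockdown, and 1.65 (1.31 to 2.05) and 0.88 FPKM in the Ca1a control and overexpression libraries. The control ratio in reads scaled to depth was 3.85 (3.01 to 4.99). CCNE2 therefore made up 61.8% of the summed E-cyclin FPKM in the MDA-MB-231 control and 11.7% in the Ca1a control, where CCNE1 held 88.3%. The sums were 15 and 1.87 FPKM.

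Part of the CCNE2 gene lies over another gene. INTS8, an Integrator subunit gene on the opposite strand, covers 1629 bases, or 37%, of its exons in GENCODE, and the sources used here do not give the strand setting of the counting. INTS8 itself had 1034 reads in the MDA-MB-231 control and 886 in the Ca1a control. The part of this overlap in the CCNE2 reads was not tested.

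**Figure D2:**
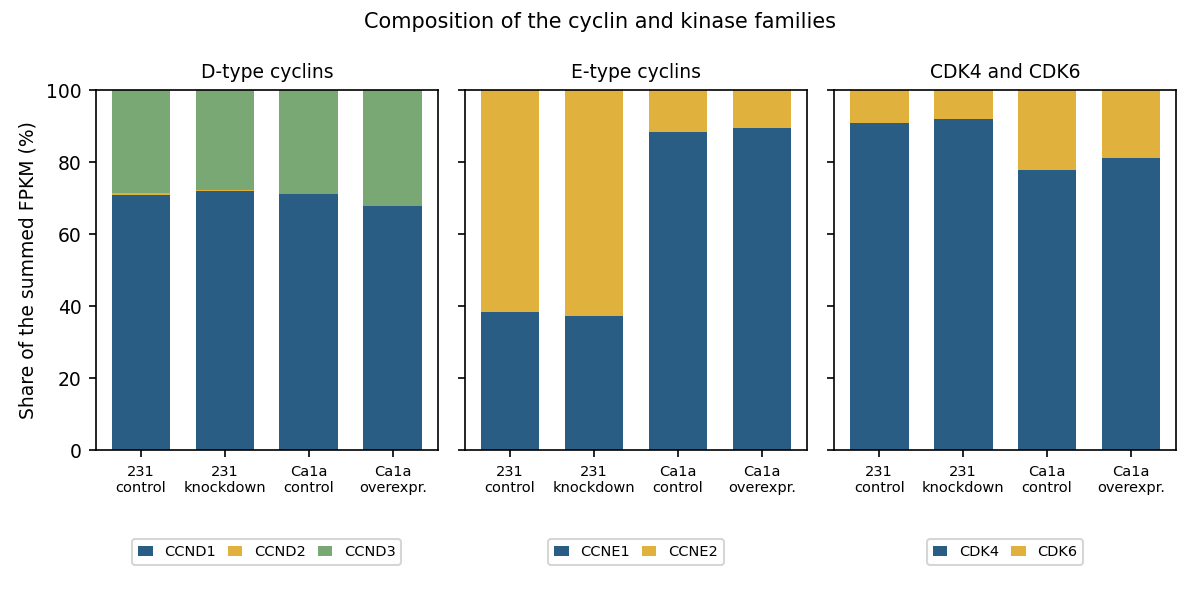
Share (%) of the summed FPKM taken by each D-type cyclin, each E-type cyclin and CDK4 or CDK6, as stacked bars for the 4 libraries. The D-cyclin bars are alike, with CCND1 at 67.9% to 71.9%, whereas CCNE2 takes 61.8% and 62.7% of the E-cyclin sum in MDA-MB-231 and 11.7% and 10.5% in Ca1a.

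CDK4 was the main cyclin D kinase in all 4 libraries. CDK4 (chromosome 12, 57747727 to 57756013, minus strand) had 99.2 FPKM in the MDA-MB-231 control (96.4 to 102), 99.2 in the knockdown, 46.7 in the Ca1a control (44.9 to 48.7) and 47.9 with overexpression, and the lines did not overlap. Its control ratio in reads scaled to depth was 2.15 (2.05 to 2.27). TSPAN31, on the opposite strand, covers 43.2% of the CDK4 exons and had 651 and 453 reads in the 2 controls, against 4803 and 2297 for CDK4.

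CDK6, the paralogue that serves the same cyclins, went the other way. CDK6 (chromosome 7, 92604921 to 92836594, minus strand) had 9.96 FPKM (9.63 to 10.3) in the MDA-MB-231 control and 8.61 in the knockdown, and 13.3 (12.9 to 13.7) in the Ca1a control and 11.2 with overexpression. It was 1.27-fold higher in the Ca1a control in reads scaled to depth (1.21 to 1.33). CDK6 took 9.13% of the summed kinase FPKM in the MDA-MB-231 control and 22.1% in the Ca1a control.

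RB1, the substrate of these kinases, was close to level. RB1 (chromosome 13, 48303726 to 48599436, plus strand) had 14.1 and 13.6 FPKM in the MDA-MB-231 control and knockdown, and 12.3 and 11.8 FPKM in the Ca1a control and overexpression libraries. The control ratio in reads scaled to depth was 1.2 (1.13 to 1.28).

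By level, the order in the MDA-MB-231 control ran from CCND1 through CDK4, CCND3, RB1, CDK6, CCNE2 and CCNE1 to CCND2, and the intervals of CDK6 and CCNE2 overlapped. In the Ca1a control it ran from CDK4 through CCND1, CCND3, CDK6, RB1 and CCNE1 to CCNE2, with no overlap between neighbours. CCND1 and CDK4 thus changed places between the lines, as did RB1 and CDK6. RB1 and CDK6 overlapped in the overexpression library, and CCNE2 and CDK6 in the knockdown.

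CDKN2A (chromosome 9, 21967753 to 21995301, minus strand) and CDKN2B (22002903 to 22009363, minus strand) were listed at 0 reads in all 4 libraries, as was the antisense transcript CDKN2B-AS1. The counting interval of a 0 reached 3.67 to 3.71 normalized counts in these libraries. Of 20183 protein-coding genes, 4193 (20.8%) were at 0 in all 4 libraries, among them the ribosomal protein genes RPS18 and RPL7A, on which all cells depend. A 0 in these data is therefore no more than a listing, and does not show that a gene is silent.

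The genes around the INK4 pair differed between the lines. In both MDA-MB-231 libraries, 24 consecutive protein-coding genes from HACD4 to IZUMO3 were at 0 reads, over 3546 kb (chromosome 9, 20999515 to 24545946). Of these, 19 were at 0 in all 4 libraries, including 15 of the 16 interferon genes of the stretch, and 5 had reads in both Ca1a libraries. MTAP, the methylthioadenosine phosphorylase gene that ends 30101 bases before CDKN2A, had 245 reads in the Ca1a control and 193 with overexpression. KLHL9, a CUL3 ubiquitin ligase adaptor gene, had 1050 and 1101 reads.

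The remaining Ca1a signals of the stretch lay on both sides of CDKN2A. DMRTA1 had 175 and 163 reads, ELAVL2, a neuronal RNA-binding protein gene, 363 and 352, and the epithelial interferon gene IFNE 78 and 98, in the Ca1a control and overexpression libraries. By counting intervals in reads scaled to depth, the MDA-MB-231 control was at least 276-fold lower than the Ca1a control for KLHL9. The bound was 95-fold for ELAVL2, 64-fold for MTAP, 45.6-fold for DMRTA1 and 20-fold for IFNE. In Ca1a, by contrast, the zeros at CDKN2A, CDKN2B-AS1 and CDKN2B sat between MTAP and DMRTA1, which both had reads.

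The edges of the stretch had reads in both lines. FOCAD, which ends at 20995955, had 87 reads in each MDA-MB-231 library and 849 and 960 in Ca1a. MLLT3, next to it, had 393 and 399 reads in MDA-MB-231 and 50 and 59 in Ca1a. On the other side TUSC1, which starts at 25676389 and was picked after its values were seen, had 204 reads in the MDA-MB-231 control and 238 in the Ca1a control. Of the 10969 protein-coding genes that averaged 20 or more reads in Ca1a, 108 (0.985%) were at 0 in both MDA-MB-231 libraries. DNA copy number was not measured here.

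**Figure D3:**
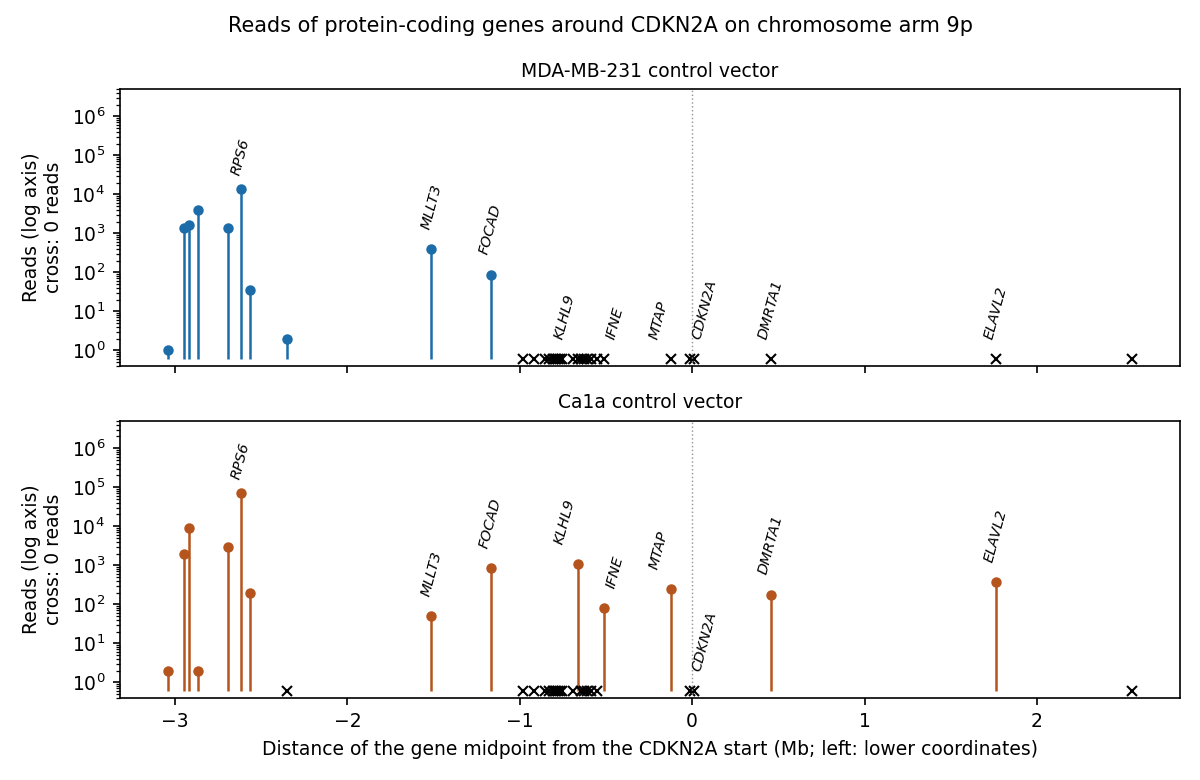
Reads (log axis, crosses for 0) of protein-coding genes against the distance of each gene's midpoint from the CDKN2A start (Mb), in the MDA-MB-231 control (top) and the Ca1a control (bottom). KLHL9, IFNE, MTAP, DMRTA1 and ELAVL2 are at 0 in the top panel and have 1050, 78, 245, 175 and 363 reads in the bottom panel, while CDKN2A and CDKN2B are crosses in both.

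TMEM126A knockdown in MDA-MB-231 left the G1 genes near their control levels, with CCND1 slightly higher and CDK6 slightly lower. Of 8 members averaging 20 or more normalized counts, 1 was higher and 1 lower beyond counting error, and 6 were within it. Of all 13292 such genes, 16.8% were higher and 11.3% lower by the same measure, so the members' shares were near the background. None was past 2-fold, as were 0.248% of all genes on the higher and 0.143% on the lower side. The median log2 ratio was -0.02 over the members and 0.01 over all genes.

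CCND1 had 11309 normalized counts in the MDA-MB-231 control and 12303 in the knockdown, a ratio of 1.09 (1.06 to 1.12). CDK6 had 3502 and 3050, so that it was 1.15-fold lower (1.09 to 1.21). The other kinase, CDK4, had 4833 and 4915, a ratio of 1.02 (0.977 to 1.06). The 2 called members thus moved in opposite directions, both by small amounts.

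The other 5 tested members gave no difference beyond counting error. The ratio was 1.03 for CCND3 (0.982 to 1.09), 0.949 for CCNE1 (0.805 to 1.12), 1.01 for CCNE2 (0.917 to 1.11) and 0.964 for RB1 (0.905 to 1.03). CCND2, from 97.6 and 79.5 normalized counts, had the widest interval, 0.598 to 1.11 around 0.815. In the authors' deposited table the adjusted p-value of all 8 members was 1.

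With TMEM126A overexpression in Ca1a, CCNE1 and CDK6 were lower and CCND3 was at the edge of counting error. Of 6 members averaging 20 or more normalized counts, 1 was higher, 2 were lower and 3 were within counting error. Of all 12111 such genes, 18.1% were higher and 16.2% lower. None of the members was past 2-fold, as were 0.256% of all genes on the higher and 0.289% on the lower side. The median log2 ratio was -0.00 over the members and 0.01 over all genes.

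CCNE1 had 81 reads in the Ca1a control and 46 with overexpression, 1.76-fold lower (1.21 to 2.59). Its low counts make this the least precise of the calls, and it leaves the tested genes where a mean of at least 100 is asked. CCNE2, at 18 and 11 reads, fell below the minimum mean and was not tested; its ratio was 0.611 (0.261 to 1.37). The summed E-cyclin FPKM were 1.87 in the control and 0.984 with overexpression.

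CDK6 had 4548 reads in the Ca1a control and 3937 with overexpression, 1.16-fold lower (1.11 to 1.21). It was the one member lower in both comparisons, that is, with the knockdown in one line and with overexpression in the other. Of all tested genes, 11.3% were lower with the knockdown and 16.2% with overexpression. The share lower in both is not given here, so CDK6 cannot be set against it. CDK6 was also lower in both when the libraries were scaled by total reads or by TMM, a trimmed mean of gene ratios. Its share of the kinase sum was 22.1% in the Ca1a control and 18.9% with overexpression, and 9.13% and 7.99% in the MDA-MB-231 control and knockdown.

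CCND3 had 974 and 1068 reads in the Ca1a control and overexpression libraries, a ratio of 1.1 (1.004 to 1.2). With TMM scaling the interval was 0.997 to 1.19 and the call was lost. CCND1, at 4116 and 4053 reads, had a ratio of 0.985 (0.943 to 1.03) and was within counting error, and its difference from the knockdown ratio was not tested. CDK4 (1.02, 0.962 to 1.08) and RB1 (1.01, 0.947 to 1.08) were within counting error. In the authors' deposited table the adjusted p-value was 1 for all 8 members with a value.

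**Figure D4:**
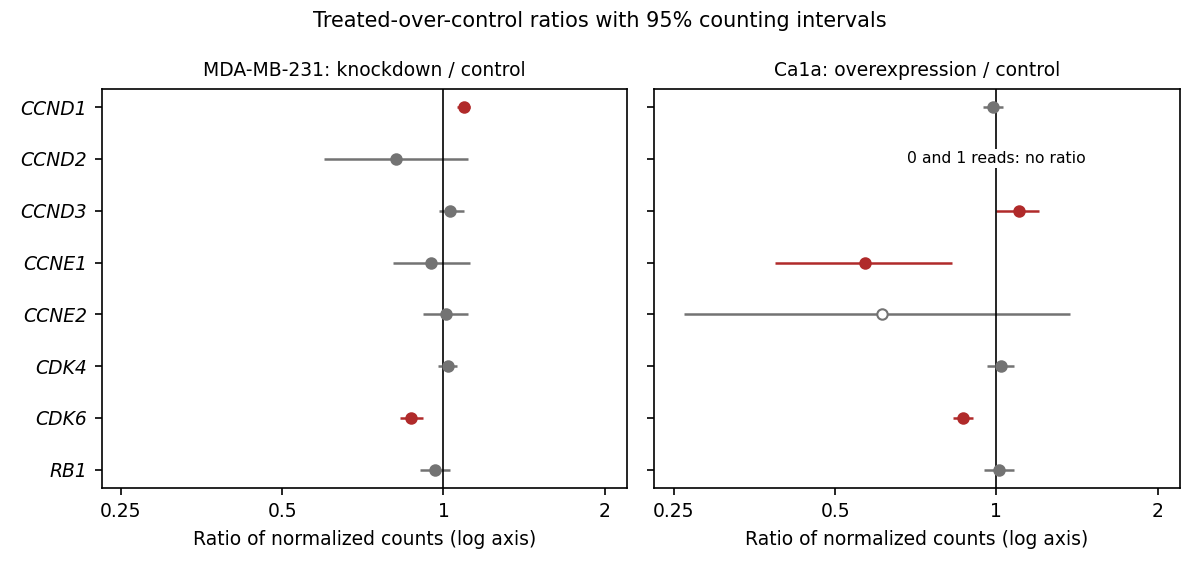
Treated-over-control ratio of normalized counts (log axis) with 95% counting intervals for the 8 members with reads, for the knockdown in MDA-MB-231 (left) and overexpression in Ca1a (right). Red marks intervals that leave out 1, grey those that hold 1, and the open symbol a gene under the minimum mean; CDK6 lies below 1 in both panels, at 0.871 and 0.866.

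The remaining CDK inhibitors were measured beside the INK4 pair. Of 5, CDKN1C was at 0 in all libraries. CDKN2C and CDKN2D, which encode the other INK4 proteins, had 11.2 and 25 FPKM in the MDA-MB-231 control and 0.886 and 4.54 FPKM in the Ca1a control, 12.6-fold and 5.51-fold higher in MDA-MB-231. CDKN1A, the p53 target that encodes the p21 inhibitor, had 25 against 52.4 FPKM and was 2.1-fold higher in Ca1a. The INK4 genes with reads in both lines were thus CDKN2C and CDKN2D.

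CDKN1B, which encodes the p27 inhibitor, gave opposite calls in the 2 comparisons. It had 1132 and 1241 normalized counts in the MDA-MB-231 control and knockdown (ratio 1.1, 1.01 to 1.19), and 989 and 869 in the Ca1a control and overexpression libraries (ratio 0.879, 0.801 to 0.963). The call with the knockdown was lost under scaling by total reads (0.988 to 1.16), and the difference between the comparisons was not tested. CDKN1A had a ratio of 1.05 with overexpression, higher as deposited and within counting error with TMM scaling (0.996 to 1.1), and CDKN2C and CDKN2D were within counting error in both.

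Of 11 RB family and E2F genes with at least 1 FPKM, 4 were at least 2-fold higher in the MDA-MB-231 control and 1 in the Ca1a control, against 26.8% and 13.6% of all genes. After the shift of all genes was taken off, 4 and 2 were past 2-fold. E2F1, an activator, had 38.5 against 1.64 FPKM, and RBL1, the p107 relative of RB1, 8.1 against 0.897. E2F8, a repressor, was 52.9-fold higher and E2F3, an activator, 2.72-fold higher. RBL2, the p130 relative, was 2.11-fold higher in Ca1a, whereas RB1 itself stayed under 2-fold. E2F2 was at 0 in all libraries.

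E2F7, an atypical repressor of E2F targets, was lower in both comparisons, as CDK6 was. It had 4519 and 3929 normalized counts in the MDA-MB-231 control and knockdown, 1.15-fold lower (1.1 to 1.2), and 2871 and 2318 in the Ca1a control and overexpression libraries, 1.24-fold lower (1.17 to 1.31). E2F7 was also lower in both under total-read and TMM scaling. The share of all genes that were lower in both comparisons is not given here. RBL2 was higher in both as deposited, with ratios of 1.09 and 1.06, but both calls were lost with TMM scaling. E2F1 was lower with the knockdown (ratio 0.942). In all, 1 of 11 tested genes was higher and 2 were lower with the knockdown, against 16.8% and 11.3% of all genes. With overexpression 1 of 10 was higher and 1 lower, against 18.1% and 16.2% of all genes.

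Of 14 tested genes that activate the G1 kinases or set the turnover of their cyclins, 3 were higher and 1 lower in each comparison. Over all genes 16.8% were higher and 11.3% lower with the knockdown, and 18.1% and 16.2% with overexpression. With total-read scaling 1 was higher with the knockdown. With the knockdown CDK2, CDC25A and SKP1 were higher and CCNH, the cyclin of the CDK-activating kinase, was lower (ratio 0.874). With overexpression SKP1 (1.21), SKP2 (1.19) and CDC37 (1.05) were higher and GSK3B was lower (0.933). Between the controls SKP2, which targets the CDKN1B protein for degradation, was 4.74-fold higher in MDA-MB-231 and CDK2, the E-cyclin kinase, 2.41-fold, while GSK3B was 3.2-fold higher in Ca1a. After the shift of all genes was taken off, 1 gene of this list, SKP2, stayed past 2-fold in MDA-MB-231, and GSK3B stayed so in Ca1a.

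The 22 E2F-responsive replication and mitosis genes leaned to MDA-MB-231 as the cyclins did. Of these, 13 were at least 2-fold higher in its control and 0 in the Ca1a control, against 26.8% and 13.6% of all genes. The list had a median log2 ratio of 1.39, and 12 stayed past 2-fold after the shift of all genes was taken off. MCM3, a helicase subunit gene, was 9.46-fold higher, TK1 5.85-fold and TYMS, the thymidylate synthase gene, 4.88-fold. The other 9 were under 2-fold, from CDK1, 1.16-fold higher in Ca1a, through CDT1 (1-fold) and ORC1 (1.06-fold) to MYBL2 (1.95-fold) and RRM2 (1.96-fold higher in MDA-MB-231).

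Within the lines this list moved less. With the knockdown, 4 of 22 were higher and 3 lower, against 16.8% and 11.3% of all genes, with a median log2 ratio of 0.01. The split of the list was 2 and 6 with total-read scaling and 3 and 4 with TMM scaling. The higher ones were CCNA2 (1.1), CCNB1 (1.11), CDC6 (1.07) and FBXO5 (1.11), and the lower ones TYMS (0.915), MCM6 (0.939) and MCM7 (0.954). With overexpression 10 were higher and 1, RRM2 (0.916), was lower, against 18.1% and 16.2% of all genes. Intervals narrow as counts rise, and the shares of all genes were not matched for counts. The list genes had 163 to 5757 reads in the Ca1a control. The list median was 0.10 against 0.01 over all genes, and 9 were higher and 2 lower under either other scaling. TYMS and GINS2, a replication complex gene, each had a ratio of 1.35 and PCNA, the replication clamp, 1.29, while CCNE1 was lower in the same library. These lists were drawn up with earlier results of the data known, so the counts are a description.

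**Figure D5:**
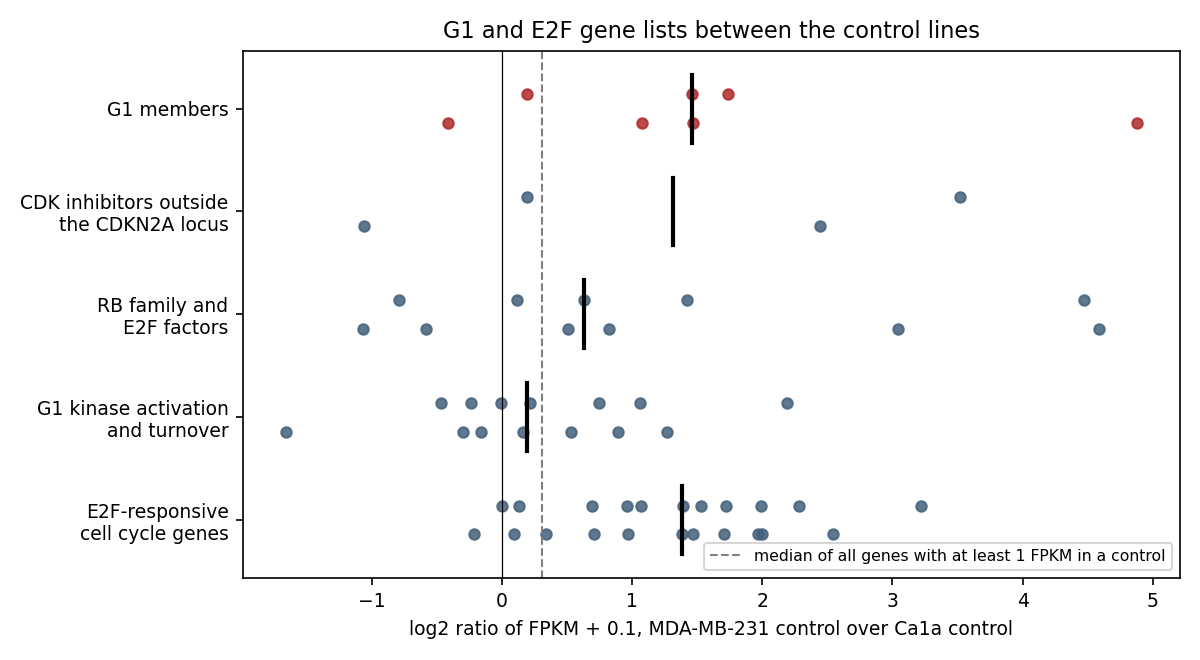
Log2 ratio of FPKM + 0.1 between the MDA-MB-231 and Ca1a controls, 1 point per gene with at least 1 FPKM in a control, for the G1 members and 4 related lists; black bars are list medians and the dashed line the median of all such genes. The medians of the members (1.46) and the E2F-responsive genes (1.39) lie to the right of the line at 0.31, and that of the kinase activation list (0.19) lies to its left.

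The genes whose FPKM followed a member most closely over the 4 libraries were ranked by the root mean square difference of log2(FPKM + 0.1). For CCND1 they were MAPRE1 (0.03), CKAP4 (0.07) and PIGY (0.12). For CCNE1 they were LINC00857 (0.14), LOC105369174 (0.16) and VIM-AS1 (0.17). For CCNE2 they were SECTM1 (0.23), TMEM92 (0.25) and GALNT5 (0.25). MAPRE1, a microtubule plus-end protein gene, had 114 and 117 FPKM in the MDA-MB-231 control and knockdown and 38.3 and 38.6 in the Ca1a control and overexpression libraries, next to 110, 118, 39.6 and 38.2 for CCND1. The likeness rests on 4 libraries and mostly on the difference between the lines.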

How the data were processed

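The submitters' processing notes name the builds GRCh38.p5 and hg38 and the tools HISAT2, Cufflinks, HTSeq and DESeq, with no versions, roles or strand setting. The authors deposited raw counts of reads for Ca1a. The MDA-MB-231 columns are a signal that the authors made by dividing counts by a size factor (0.9938 and 1.006), and 100% of values were whole multiples of 1 read within 1e-06. Log2 fold changes and p-values are those deposited by the authors. FPKM of all 4 libraries were deposited by the authors.

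Ratios carry exact conditional binomial (Clopper-Pearson) and levels exact Poisson intervals at 95%, which cover counting error only and were tested on simulated data. A gene averaging 20 or more normalized counts was called where its interval left out 1, or past 2-fold on log2(value + 1). Lines were compared on log2(FPKM + 0.1) for genes with at least 1 FPKM in a control. The rule for names took every member, TMEM126A, the list genes with the 4 largest log2 ratios or at 0, and the 3 genes nearest to each of 3 members; of the line marker and overlapping gene lists the text gives examples. CDK1, CDK2, CDC6, CDC37, MCM6, MCM7, RBL2 between the lines, CDT1, ORC1, MYBL2 and RRM2 between the lines, GSK3B and RRM2 with overexpression, TYMS with the knockdown, HACD4, IZUMO3, TUSC1, RPS18 and RPL7A were named after their values were seen. The members and lists were chosen with earlier results of these data known.

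Positions come from GENCODE release 29 (GRCh38). Motifs were counted in RefSeq windows. Alternatives were TMM and total-read scaling, other minimum means, pseudocounts and folds, and, added after seeing the data, centring between the lines and the lists under each scaling. The software used was python 3.11.15, pandas 2.3.3, scipy 1.17.1, R 4.3.3 and, for TMM, edgeR 4.0.16. A further result is not reported here.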

Additional observations from a re-analysis of the deposited data

How the results depend on the processing

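Of 104 values of single members under the alternatives, 101 were marked as within counting error of the main value and 3 as moved. The 3 were CCNE1, CCNE2 and CDK6 between the lines. CCND2, with 0 reads in the Ca1a control, was not marked although its log2 ratio was unstable. It ran from 0.67 to 6.57 between the lines and from 0.08 to 1.58 with overexpression. No called member changed direction. Among members within counting error, the log2 ratio changed sign for CCNE2 (0.01 to -0.02) and CDK4 (0.02 to -0.01) with the knockdown under total-read scaling, and for RB1 (0.02 to -0.06) with overexpression in FPKM. Of 61 counts and medians, 3 were marked as moved and 58 were not, though some of the 58 also changed. With overexpression, the number of members called higher was 0 with TMM scaling (CCND3 was lost) instead of 1. The number called lower was 1 with a mean of at least 100 (CCNE1 was no longer tested) instead of 2. The number past the fold threshold was 1 at 1.5-fold (CCNE1) instead of 0. Under scaling by total reads, 11.9% of all genes were higher and 16.7% lower with the knockdown, against 16.8% and 11.3% as deposited, and the calls of CCND1 and CDK6 held. With the lines centred on the median of all genes, chosen after seeing the data, 4 members were past 2-fold instead of 5. With no FPKM minimum, 6 members were past 2-fold between the lines. Neither of these changes was marked as a move. No paired analysis was possible because each group held 1 library. Counting intervals do not cover variation between cultures, which was not measured, and low counts limit CCND2, CCNE1 and CCNE2 in Ca1a.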

Other observations

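Runs of neighbouring protein-coding genes at 0 reads in both libraries of one line, with at least 2 genes at a mean of at least 20 reads in the other, were listed across the genome after the 9p stretch had been seen. MDA-MB-231 had 9 such runs and Ca1a had 35. The 9p stretch spanned 3546 kb and 24 genes in MDA-MB-231, 5 of them at that mean in Ca1a. Ca1a had runs that were longer in kb but held fewer genes. These spanned 8240 kb on chromosome 7 (56114681 to 64354860) and 7564 kb on chromosome X (86148458 to 93712274). Each held 8 genes, 2 of them at that mean in MDA-MB-231. In Ca1a the run with the most genes at that mean was a zinc finger cluster on chromosome 19 (12014732 to 12401271). It held 10 genes over 387 kb, 9 of them at that mean in MDA-MB-231. In MDA-MB-231 it was a HOXA run on chromosome 7, with 8 genes over 82 kb, 7 of them at that mean in Ca1a. A chromosome 1 run in MDA-MB-231 also held 24 genes, 2 of them at that mean in Ca1a. Such runs were thus found in both lines.

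CDK7, the kinase that activates CDK2, CDK4 and CDK6 together with CCNH, had 7 and 8 reads in the MDA-MB-231 control and knockdown and 3 and 12 in the Ca1a control and overexpression libraries. Its partner CCNH had 1286 reads in the MDA-MB-231 control and 1434 in the Ca1a control. As with the genes listed at 0, such low counts are no more than a listing and do not show that CDK7 is nearly silent.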
